A study of Mus musculus with 13 samples.

Results

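Pi16 progenitor-like fibroblasts of the mouse mammary gland were described in 13 single-cell RNA sequencing libraries from 9 groups of female mice. A cell barcode was taken as a fibroblast if it had 500 to 7500 detected genes, at most 10% mitochondrial molecules (UMIs, unique molecular identifiers), at least 50 UMIs of Dcn, Lum and Col1a2 together per 10000, and no UMI of Epcam, Pecam1, Rgs5, Sox10, Ptprc or Myog. Among the fibroblasts, the members were those with at least 10 Pi16 UMIs per 10000 and at least 1 UMI of Dpp4, Sema3c or Cd55. The rule found 30983 members among 100523 fibroblasts, or 30.8%, out of 120355 barcodes in all. The members were thus chosen by their measured Pi16, Dpp4, Sema3c and Cd55 UMIs, and the levels of these genes are given below as a description without a test, and so are all differences between members and the remaining fibroblasts within a library.

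Fibroblasts that express Pi16 and Dpp4 are found around vessels and in the fascia and septa of many organs. They are regarded as a reserve of mesenchymal progenitors that can give rise to preadipocytes and to more specialised, matrix-producing fibroblasts. Pi16 encodes a peptidase inhibitor, Dpp4 a membrane-bound dipeptidyl peptidase, Sema3c a secreted semaphorin and Cd55 a membrane protein that protects cells from complement.

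5 of the groups were stages of wild-type C57BL/6 females with 1 library each: puberty (4 weeks of age), virgin adults (9 weeks), pregnancy (day 14.5), lactation (day 10) and involution (day 4 after pups were removed). A second set of wild-type C57BL/6 females aged 9 weeks carried pellets of medroxyprogesterone acetate with estradiol (MPA+E, a synthetic progestin and an estrogen) or placebo pellets, with 2 libraries each. The stromal fraction of all these glands was sorted as negative for CD24 and for the lineage markers CD31, CD45 and TER-119, and each library pooled 2 females. The last set came from 2 raGFP-Wnt1 females, which carried Pdgfra-GFP KI/+ (a reporter that labels Pdgfra-expressing cells) and MMTV-Wnt1 T/+ (Wnt1 driven in the mammary epithelium) on a mixed C57BL/6 and FVB background; sorted GFP+ cells of the tumour and of the hyperplastic gland of the same mouse gave 1 library each (mouse 1 at 45 weeks, mouse 2 at 17 weeks). Between the raGFP-Wnt1 and the wild-type libraries, genotype, strain, sort, age and tissue state differed together and cannot be told apart. The stages had no replicate, and which libraries shared a sequencing run was not given in the sources used here.

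1 library stood apart. In tumour 2 the rule found 174 members among 4236 fibroblasts, 4.11%, against 18.96% to 41.2% in the other 12. Its members had a median of 14.4 Pi16 UMIs per 10000, against 21.1 to 30.4 elsewhere, and 46.6% of them held only 1 of the 3 co-markers, against 1.11% to 16.2%. In the whole series 74.7% of the members held all 3 co-markers, 18.03% held 2 and 7.31% held 1. The sum of 28 other progenitor marker genes was 10418 counts per 1000000 UMIs (CPM, of the members of a library) in the members of tumour 2, against 23872 to 34139.6 in the other 12 libraries, so by these markers the label fitted the members of tumour 2 less well. The 9 genes of the matrix-remodelling state summed to 21238 CPM in them, above their progenitor sum and above the remaining fibroblasts of tumour 2 (10772), against 925 to 5381 in the members of the other libraries. Most of this sum was Mgp, whose values are given below. Crabp1 and Pla2g7 of the same list were lower in these members than in the rest of tumour 2 (log2 ratios -2.12 and -0.142). The adipogenesis-regulatory list summed to 3345 CPM in them, most of it Igfbp7, and to 2793 in the rest of tumour 2. Values of tumour 2 below are thus those of the cells the rule picked. The counts of genes called for the tumours and the values of many of the leading tumour genes below are also given without it.

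Library depth ran from 56551189 UMIs in puberty to 112550204 in tumour 1, and the median member held 3917 UMIs in pregnancy to 18431.5 in MPA+E 1. Barcodes under the fibroblast threshold that held at least 2 UMIs of the excluded lineage genes met the Pi16 and co-marker condition in 0 to 1.03% of cases, which is the background of the rule; their median UMI counts ran from 1835 to 12899. Pairs of libraries shared 0.0956% to 0.539% of the smaller library's barcodes, and 0 to 6 member barcodes. In the members the marker lists of other cell types summed to at most 16.6 CPM for immune cells, 12.3 for muscle, 12.8 for mesothelium, 79.8 for pericytes, 84.8 for Schwann cells, 91.9 for endothelium and 167 for epithelium. The epithelial maximum, in hyperplasia 2, was nearly all Krt19, whose values are given below. The milk list reached 1193 CPM, and the keratinocyte list, which shares genes with the members' own leading genes, ran from 103 to 978 CPM.

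The Pi16 limit did not fall in a gap between cells. In the adult library 347 fibroblasts lay just outside it (8 to 10 Pi16 UMIs per 10000, with a co-marker) and 301 just inside it (10 to 12). Cd34, a surface glycoprotein of stem and stromal cells, reached 984 CPM just outside and 1021 CPM just inside, and Ly6c1 reached 1511 and 1505 CPM. In the adult library the bands on either side were thus alike in these markers. In involution Cd34 reached 674 CPM just outside and 768 just inside, and Ly6c1 786 and 912. In hyperplasia 2 the order was the other way, with 1079 and 1023 CPM of Cd34 and 969 and 901 of Ly6c1. The 185 adult fibroblasts that passed the Pi16 limit with no co-marker UMI had 753 CPM of Cd34 and 810.2 CPM of Ly6c1. In tumour 2 the values of Cd34 were 272 CPM just outside and 372 CPM just inside, the lowest of all libraries in both bands.

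The members were set apart by most of the progenitor markers and by Krtdap, Dmkn and Sbsn, secreted proteins best known from the epidermis. Each gene was compared as a log2 ratio of CPM + 1 between the members and the remaining fibroblasts of the same library and averaged over 13 libraries (± SD). Of 3063 genes with at least 50 CPM on the higher side, 553 were higher in the members of all 13 libraries (18.1%) and 373 lower (12.2%); without tumour 2, 737 were higher and 576 lower in 12 of 12. These counts describe the cells the rule picked and carry no test. In the plot of the leading genes, the diamonds of tumour 2 lie nearer to 0 than the mean of 13 libraries for 21 of 25 genes and beyond it for Efhd1, Fabp4, Tnc and Rgs2.

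**Figure D1:**
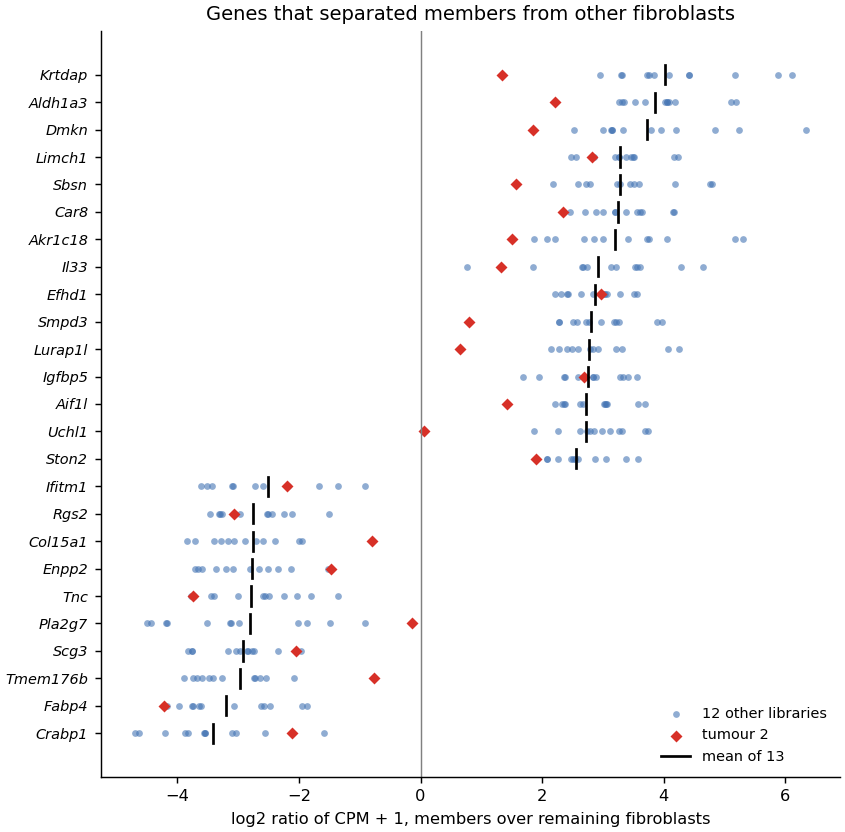
Log2 ratio of CPM + 1, members over remaining fibroblasts, for the 15 leading higher and 10 leading lower genes; each point is a library, diamonds are tumour 2 and black ticks the mean of 13 libraries. Krtdap lies highest at a mean of 4.02 and Crabp1 lowest at -3.41. No point crosses 0, since genes were chosen for the same sign in all 13 libraries.

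Of the 28 progenitor markers, 24 were higher in all 13 libraries, against 14.6% of 9928 genes at 5 CPM or more, and 26 in 12 of 12 without tumour 2. This list, like the others below, was chosen with earlier results of these data known. Its count is thus a description and no support for the label. The exceptions over 13 libraries were Bmp7 and Dact2, each higher in 12, Has1 in 11 and Tppp3 in 4. Among the leading progenitor markers were Aldh1a3, which makes retinoic acid (a mean of 193 CPM in the members and 11.5 in the rest, log2 ratio 3.85 ± 0.78), and Akr1c18, which inactivates progesterone (244 and 29.99 CPM, 3.20 ± 1.19). Il33, an alarmin cytokine, averaged 267 and 60.02 CPM (2.92 ± 1.11). Igfbp5, a secreted IGF-binding protein, was the most abundant of these with 4404 CPM in the members and 586 in the rest (2.75 ± 0.57). Limch1, Efhd1 and Smpd3, a sphingomyelinase, had log2 ratios of 3.28 ± 0.53, 2.86 ± 0.44 and 2.80 ± 0.81.

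Krtdap, Dmkn and Sbsn, secreted proteins known from differentiating keratinocytes, were together among the 5 leading genes. Krtdap averaged 77.4 CPM in the members and 2.62 in the rest (4.02 ± 1.26, range over libraries 1.35 to 6.11). Dmkn averaged 157 and 12.2 CPM (3.73 ± 1.20), and Sbsn 331 and 35.1 CPM (3.28 ± 0.94). The defining keratin of suprabasal keratinocytes, Krt10, differed far less, with 34.9 CPM in the members and 27.6 in the rest. It was nonetheless higher in the members of all 13 libraries, as were Krtdap and Dmkn. Krt1 stayed below 5 CPM on both sides. Outside the lists, Car8, Lurap1l, Aif1l, Uchl1 (a ubiquitin hydrolase of neurons) and Ston2 completed the 15 leading genes with log2 ratios of 2.55 to 3.25.

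Preadipocyte, matrix-remodelling, collagen and basement membrane genes were among those lower in the members. Of 15 preadipocyte genes, 9 were lower in all 13 libraries, against a background of 9.44%, and 1 higher (Zfp423, 1.02 ± 0.28). Fabp4, a fatty acid carrier, averaged 24.5 CPM in the members and 242 in the rest (-3.20 ± 0.82). Of 9 genes of the matrix-remodelling state, 6 were lower and Ptx3 was higher; Crabp1, a retinoic acid-binding protein, averaged 18.3 and 179 CPM (-3.41 ± 0.92). Among 12 fibrillar collagen genes and processing factors 8 were lower and 0 higher in all 13 libraries. Among 14 basement membrane genes 6 were lower, led by Col15a1 with 92.6 and 512 CPM (-2.75 ± 0.83), and 1, Nid1, was higher. The other leading lower genes were Tmem176b, Scg3, Pla2g7, Tnc, Enpp2 (autotaxin), Rgs2 and Ifitm1, with log2 ratios of -2.96 to -2.50.

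Over all genes at 5 CPM or more, 14.6% were higher and 9.44% lower in the members of all 13 libraries. Of 18 growth factor genes at 5 CPM or more, 4 were higher in all libraries (Fgf2, Fgf18 and Pdgfc among them) and 7 lower (Igf1, Fgf10, Hgf, Pdgfa, Ptn, Mdk and Angptl4). Of 19 Wnt pathway genes, the ligands Wnt2 and Wnt10b (3.28 ± 0.89) and the decoy Sfrp4 were higher and 4 others lower, the former close to the share over all genes. The receptors for estrogen and progesterone were both higher, Esr1 by 0.84 ± 0.43 and Pgr by 1.79 ± 0.95 on the log2 scale. Of 17 genes of elastic fibres and loose matrix, 6 were higher (Fbn1, Mfap5, Emilin2, Fbln5, Tnxb and Adamtsl4) and 2 lower, while 0 of 11 cell cycle genes had the same sign in all 13 libraries.

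By the rule, the share of members among fibroblasts was highest in pregnancy, 41.2%, and lowest outside the raGFP-Wnt1 mice in MPA+E 1, 24.4%. Puberty had 39.7%, lactation 38.3%, the adult 37.6% and involution 25.5%. The placebo libraries, from virgin females of the same age as the adult one, had 34.6% and 35.99%. Involution was the only stage below the placebo libraries by this rule. The order of the other stages depended on the rule. When at least 1 UMI of Dpp4 was required, lactation (34.8%), puberty (33.8%) and adult (31.7%) were above pregnancy (29.997%), and adult and pregnancy were below both placebo libraries (33.3% and 34.8%). At a Pi16 limit of 20 per 10000 puberty (25.1%) was below both as well (25.8% and 25.5%), and involution stayed lowest of the stages under both alternatives (23.3% and 15.3%). The ratio of the pregnancy to the involution share was 1.62 (95% interval 1.55 to 1.68 for counting error only, 1 library each), and it was 1.29 when at least 1 UMI of Dpp4 was required and 1.92 at a Pi16 limit of 20 per 10000.

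**Figure D2:**
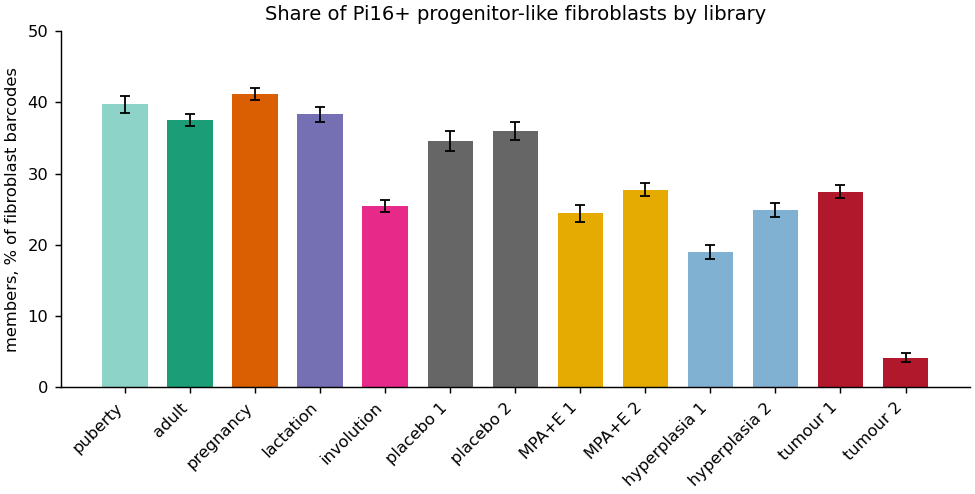
Members as a percentage of fibroblast barcodes in the 13 libraries; bars are coloured by group and error bars are exact 95% binomial intervals, which cover counting error only. Shares run from 4.11% in tumour 2 to 41.2% in pregnancy, and both MPA+E bars lie below both placebo bars.

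Under MPA+E the share was 24.4% and 27.7%, lower than in both placebo libraries, a mean of 26.1 ± 2.35% (SD, n = 2) against 35.3 ± 0.992%. The groups did not overlap, but with 2 against 2 libraries the exact two-sided permutation test gives p = 0.333 at best, which was its value here. In the raGFP-Wnt1 mice the share was 18.96% and 27.5% in the hyperplasia and tumour of mouse 1, and 24.9% and 4.11% in those of mouse 2. The 2 mice thus moved in opposite directions from hyperplasia to tumour, and the mean difference of -6.13 percentage points (exact two-sided permutation p = 1) became 5.55 without tumour 2. Hyperplasia averaged 21.9 ± 4.17% against 38.6 ± 1.52% for puberty and adult (n = 2 each, exact two-sided permutation p = 0.333, the smallest possible). The 4 raGFP-Wnt1 libraries averaged 18.8 ± 10.5% and the 9 wild-type libraries 33.9 ± 6.36%, a difference of -15.04 points (exact two-sided permutation p = 0.00839, with 0.0014 the smallest possible), or -10.1 points without tumour 2. That p treats as separate 4 libraries that came from 2 mice, and 9 wild-type libraries in different states. A share of barcodes shows the relation between cell types, so fewer members and more remaining fibroblasts cannot be told apart.

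The effect of MPA+E on gene expression within the members asks how progenitor-like fibroblasts differ under a progestin with estrogen. UMIs were summed over the members of each library and tested with edgeR's quasi-likelihood test, with p-values adjusted by Benjamini and Hochberg over all 13457 genes tested. MPA+E changed 854 of them (6.35%), of which 446 rose (3.31%) and 408 fell (3.03%). Of the lists described below, 11 of 14 interferon-induced genes rose, and 7 of 19 Wnt pathway genes and 10 of 28 progenitor markers fell; Ctla2a, Greb1 and C7 rose and Igf1, Igfbp5 and Ccn3 fell among single genes. The count depended on single libraries: leaving out placebo 1 gave 166, placebo 2 gave 103, and either MPA+E library 1195 or 1304, in which 787 and 785 of the 854 remained called. Of the 20 genes named for the size of their change, 18 remained called without either placebo library and 20 without either MPA+E library. In bulk sums of this kind, a different mixture of cells within the members and a different level per cell cannot be told apart; the members' median depth was 15814 and 13908 UMIs with placebo and 18431.5 and 10955 with MPA+E.

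**Figure D3:**
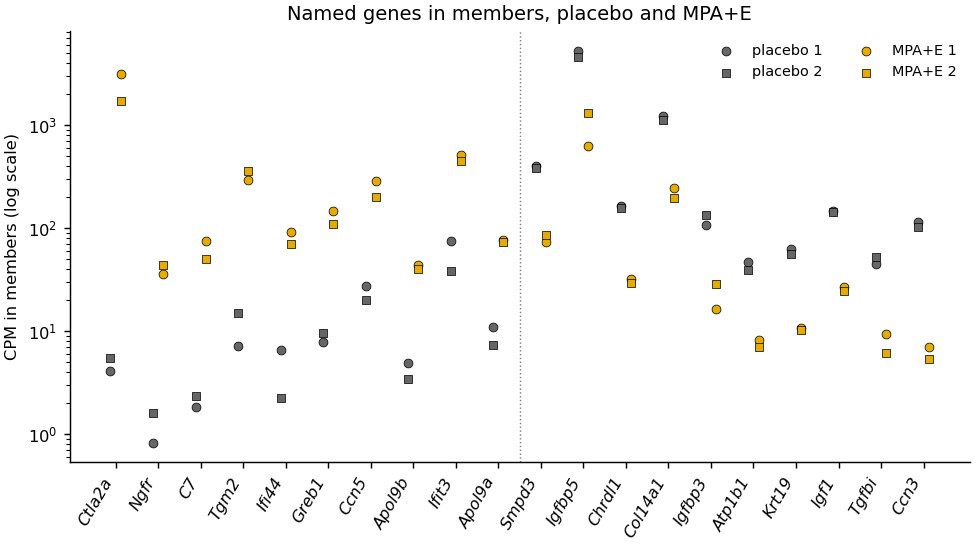
CPM in the members (log scale) of the 10 genes with the largest rises and the 10 with the largest falls; circles are replicate 1, squares replicate 2, grey placebo and yellow MPA+E. Genes were chosen for no overlap between groups, so both MPA+E points lie on the same side of both placebo points for every gene. They run from Ctla2a (4.14 and 5.52 against 3113 and 1696 CPM) to Ccn3 (115 and 102 against 7.06 and 5.43 CPM).

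The largest rise was that of Ctla2a, a cysteine protease inhibitor, from 4.14 and 5.52 CPM in the placebo to 3113 and 1696 CPM in the MPA+E libraries (log2 fold change 8.97 ± 0.43 SE, edgeR adjusted p = 0.002). Ctla2a has near-identical copies in the genome, so its counts are uncertain. Greb1, an estrogen-induced cofactor of the estrogen receptor, had 7.84 and 9.65 CPM with placebo and 147 and 109 with MPA+E (3.89 ± 0.20, edgeR adjusted p = 0.0022). Tgm2, a transglutaminase that crosslinks matrix proteins, had 7.23 and 15.1 and 296 and 358 CPM (4.89 ± 0.41, edgeR adjusted p = 0.0052). These 3 genes were low in both placebo libraries and high in both MPA+E libraries. Ngfr, a neurotrophin receptor, rose by 5.05 ± 0.31, and Ccn5, a matricellular protein, by 3.38 ± 0.21 on the log2 scale.

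Of 8 receptors and response genes for steroid and pituitary hormones, 2 rose and 2 fell, against 3.31% and 3.03% of all genes. Pgr, the progesterone receptor, had 21.6 and 28.9 CPM with placebo and 68.9 and 103 with MPA+E (1.80 ± 0.27, edgeR adjusted p = 0.022). Esr1, the estrogen receptor alpha, had 107 and 94.02 and 20.7 and 31.2 CPM (-1.91 ± 0.22, edgeR adjusted p = 0.011). The groups did not overlap for either gene, but both calls were lost without either placebo library.

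Igf1 and 2 of 7 IGF-binding genes fell, against 3.03% of all genes. Igf1, the main IGF ligand, had 146 and 144 CPM with placebo and 26.7 and 24.5 with MPA+E (-2.47 ± 0.11, edgeR adjusted p = 0.002). Igfbp5 had 5244 and 4551 and 629 and 1318 CPM (-2.29 ± 0.38, edgeR adjusted p = 0.028) and Igfbp3 108 and 134 and 16.3 and 28.6 CPM (-2.39 ± 0.31). Igfbp7 rose by 1.30, and the other 4 did not pass the test. These 3 binding proteins lost their call without either placebo library, while Igf1 kept it. Of 20 growth factor genes, 6 fell (Igf1, Fgf2, Fgf10, Fgf18, Ptn and Kitl) and 3 rose (Nrg1, an ErbB receptor ligand, Vegfd and Csf1), against 3.03% and 3.31% of all genes, and 2 of the falls and 0 of the rises remained called without placebo 1 and 1 and 0 without placebo 2. Nrg1 also lost its call at a Pi16 limit of 20 per 10000, with doublets removed, after thinning, by limma-voom and without MPA+E 1. Ccn3, a matricellular growth regulator, fell from 115 and 102 to 7.06 and 5.43 CPM (-4.09 ± 0.15, edgeR adjusted p = 0.0017). Of 19 Wnt pathway genes 7 fell and 0 rose: the ligands Wnt2 (-1.22), Wnt5a (-1.57) and Wnt11 (-1.50), the agonist Rspo3 (-1.93), the inhibitors Dkk2 and Nkd1 and the receptor Fzd1. Their share was above the 3.03% of all genes that fell. Their count was lower without either placebo library, as was the number of genes called over the whole test.

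Of 28 progenitor markers 10 fell, against 3.03% of all genes, and 1 rose, against 3.31%, with a median log2 fold change of -0.46 (all genes tested 3.7e-05). Aldh1a3 had 237 and 180.4 CPM with placebo and 75.95 and 69.96 with MPA+E (-1.48 ± 0.14, edgeR adjusted p = 0.0066), and Il33 219.7 and 190.1 and 71.01 and 74.2 CPM (-1.46 ± 0.11, edgeR adjusted p = 0.0047). The others that fell were Igfbp5, Wnt2, Dact2, Limch1, Tppp3, Opcml, Clec3b and Smpd3, and Ly6a (the Sca-1 antigen, with near-identical copies) rose by 0.85. The count of falls moved when a library was left out, as did the number of genes called over the whole test. The rule genes, given without a test, were lower with MPA+E too: Pi16 had 3225 and 2917 CPM with placebo and 2340.2 and 2461 with MPA+E, Dpp4 673 and 619 and 442 and 411, Sema3c 1344 and 1166 and 457 and 498, and Cd55 835 and 639 and 502 and 479.

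Col14a1, a collagen that associates with fibrils, had 1233 and 1127 CPM with placebo and 248 and 197 with MPA+E (-2.38 ± 0.15, edgeR adjusted p = 0.0027). Of 17 genes of elastic fibres and loose matrix, 7 fell (Col14a1, Fbn2, Efemp1, Fbln5, Ltbp4, Fn1 and Adamtsl4) and Fbln2 rose, against 3.03% and 3.31% of all genes, and 2 falls remained called without either placebo library. In the basement membrane list Col4a1 (215 and 217 and 798 and 465 CPM, 1.57) and Col4a2 (1.55), the chains of the commonest collagen IV, rose, and Col4a5 and Lamb1 fell, or 2 of 14 each way against the same shares. The calls of Fbln2 and of these 4 genes were lost without either placebo library. 0 of 12 fibrillar collagen genes and processing factors passed the test.

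Of 20 chemokine, cytokine and complement genes, 7 rose and 3 fell, against 3.31% and 3.03% of all genes. C7, a component of the complement membrane attack complex, had 1.85 and 2.36 CPM with placebo and 75.7 and 50.1 with MPA+E (4.91 ± 0.26, edgeR adjusted p = 0.0022). C4b, Cfb, Cxcl14, Cxcl16 and Il1r2 rose as well, by 0.95 to 2.15. Il33, Il6 (-1.70) and Ccl11, an eosinophil chemoattractant (-1.15), fell. Without placebo 1, 2 of the rises and 1 of the falls remained called, and without placebo 2, 1 and 1. Cxcl14 also lost its call at a Pi16 limit of 20 per 10000, with doublets removed and by limma-voom, Cxcl16 at the limit of 20 and Il6 at a limit of 5.

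Interferon-induced genes rose together. Of a list of 14, 11 rose, against 3.31% of all genes, with a list median of 1.76; 10 remained called without placebo 1 and 6 without placebo 2. Ifit3, an antiviral protein with near-identical copies, had 74.3 and 38.5 CPM with placebo and 511 and 447 with MPA+E (3.13 ± 0.30, edgeR adjusted p = 0.0068). Isg15, a ubiquitin-like modifier, had 203 and 127 and 1100.02 and 1019 CPM (2.72 ± 0.22, edgeR adjusted p = 0.0052), and the regulator Irf7 112 and 71.9 and 568 and 566 CPM (2.66 ± 0.21, edgeR adjusted p = 0.0047). Rsad2 rose by 2.98, Ifi44 by 4.23, and Ifit1, Stat2, Oasl2, Bst2 and Ifi27l2a by 1.45 to 1.76.

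The summed level of the 14 genes placed all libraries on 1 scale. It was 3660.3 and 2689 CPM in the members of the placebo libraries and 10695 and 10288 in those of MPA+E, the highest of all 13. Puberty, adult and pregnancy had 5002, 5054 and 4891 CPM, lactation 1739 and involution 3535. Hyperplasia (2086 and 1642) and tumour (918 and 686) were below all wild-type libraries except that lactation lay between the 2 hyperplasia values. The remaining fibroblasts were likewise highest with MPA+E and lowest in the tumours, with 2513 and 2155 CPM with placebo and 8072 and 8073 with MPA+E. In all 13 libraries their sum was below that of the members of the same library. By gene, 3 of the 14 were higher in the members of all 13 libraries, against 14.6% of all genes at 5 CPM or more. The other 11 were mixed, and the list's median log2 ratio was 0.10.

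**Figure D4:**
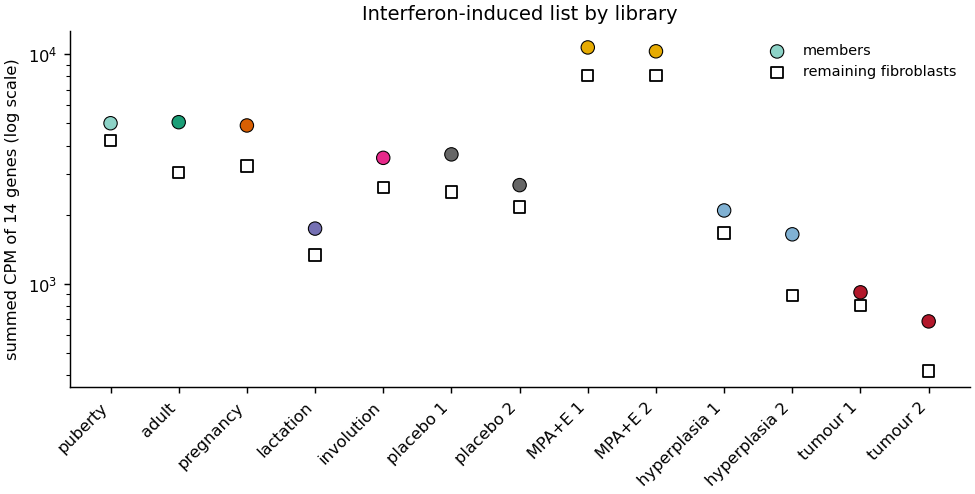
Summed CPM of the 14 interferon-induced genes by library on a log scale; filled circles are the members and open squares the remaining fibroblasts. The 2 MPA+E libraries lie highest (10695 and 10288 CPM in the members) and the 2 tumour libraries lowest (918 and 686).

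The promoters of the list were searched because its genes moved together. The letters GAAANNGAAA, which make up the core of the interferon-stimulated response element, were looked for on both strands in the 250 bases before each gene's start (RefSeq sequence, GRCm38.p6). They were found in 936 of 27025 genes (3.46%) and in 7 of the 12 list genes with an entry: Ifit3, Rsad2, Isg15, Bst2, Ifit1, Stat2 and Gbp2. The list was made of interferon-induced genes, so its higher share follows from that choice and carries no information on MPA+E. Ifi44 (4.23), Irf7 and Oasl2, which rose, held no match, nor did Ifit2 and Irf1. Overlapping matches in Isg15 and Bst2 count as 1 gene each, and Gbp2 was tested but not called (0.85, edgeR adjusted p = 0.1). Windows of 50 bases around a match are shown for 5 of the called genes, 5′ to 3′ on the strand of the gene, with the match in capitals (TTTCNNTTTC is the same motif read from the other strand).
Ifit3, chr19:34583353-34583402, plus strand: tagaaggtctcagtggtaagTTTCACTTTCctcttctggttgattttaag
Rsad2, chr12:26456543-26456592, minus strand: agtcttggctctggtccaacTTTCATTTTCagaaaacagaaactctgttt
Isg15, chr4:156200861-156200910, minus strand: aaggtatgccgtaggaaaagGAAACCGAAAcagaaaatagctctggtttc
Bst2, chr8:71537567-71537616, minus strand: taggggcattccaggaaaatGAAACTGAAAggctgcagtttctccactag
Ifit1, chr19:34640765-34640814, plus strand: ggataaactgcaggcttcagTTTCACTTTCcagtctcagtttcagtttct
The match in capitals begins 156 bases before the start in Ifit3, 120 in Rsad2, 72 in Isg15, 124 in Bst2 and 104 in Ifit1. Ifit3 and Ifit1 each held a further match, 122 and 85 bases before the start. That of Ifit1 stands in lower case near the end of its printed window, and that of Ifit3 runs beyond its window. A match is a description of the letters and not a bound site.

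Markers of other cell types were measured in the same sums. The epithelial list summed to 62.4 and 57.4 CPM with placebo and 11.1 and 10.8 with MPA+E in the members, and only Krt19, a simple-epithelium keratin, was tested in it (62.3 and 56.5 and 10.8 and 10.4 CPM, -2.46 ± 0.10); Epcam was at 0 by the rule. The endothelial list summed to 27.7 and 24.7 and 91.9 and 89.1 CPM, led by Kdr, which rose by 1.83, and the pericyte list to 44.3 and 39.8 and 11.3 and 12.002 CPM, with falls of Abcc9 (-2.59) and Kcnj8 (-2.10). The immune list summed to 1.66 and 1.21 and 1.78 and 1.101 CPM. In the rest of the same libraries the epithelial list summed to 9.85 and 7.67 and 2.97 and 2.50 CPM. The endothelial list summed there to 7.11 and 8.73 and 27.7 and 28.6 CPM. Both lists were thus higher in the members, while the pericyte list was higher in the rest (57.01 and 60.7 and 29.4 and 26.5 CPM). The heat shock genes Hspa1a and Hspa1b, which respond to cell handling, rose by 1.03 and 1.42. The part of these in the results above was not tested.

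Whether MPA+E acted alike on members and on the remaining fibroblasts was tested as an interaction over the 8 sums of the placebo and MPA+E libraries, with the library as a factor. The effect differed for 478 of 14824 genes (3.22%): it was more positive in the members for 201 (1.36%) and more negative for 277 (1.87%). Leaving out placebo 1 gave 365, placebo 2 gave 353, and either MPA+E library 662 or 719. C7 differed most, with 5.498 and 8.64 CPM with placebo and 32.2 and 24.6 with MPA+E in the rest beside the values of the members above (difference of log2 effects 2.91 ± 0.16, edgeR adjusted p = 7.47e-04). Tgm2 (31.1 and 40.7 and 139.9 and 242 CPM in the rest, difference 2.58 ± 0.24) and Ctla2a (10.5 and 15.2 and 1154 and 1238 CPM, 2.38 ± 0.35) had a more positive effect in the members, though they were higher with MPA+E on both sides. The Ctla2a difference lost its call at a Pi16 limit of 20 per 10000 (1.49), after thinning of the cells to 2000 UMIs (1.53) and by limma-voom. Fabp4 had 21.4 and 29.6 and 23.7 and 28.1 CPM in the members and 350.2 and 411 and 94.2 and 106 in the rest (1.99 ± 0.10, edgeR adjusted p = 6.96e-04). With doublets removed the difference was 2.29 and no longer called (edgeR adjusted p = 0.065).

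**Figure D5:**
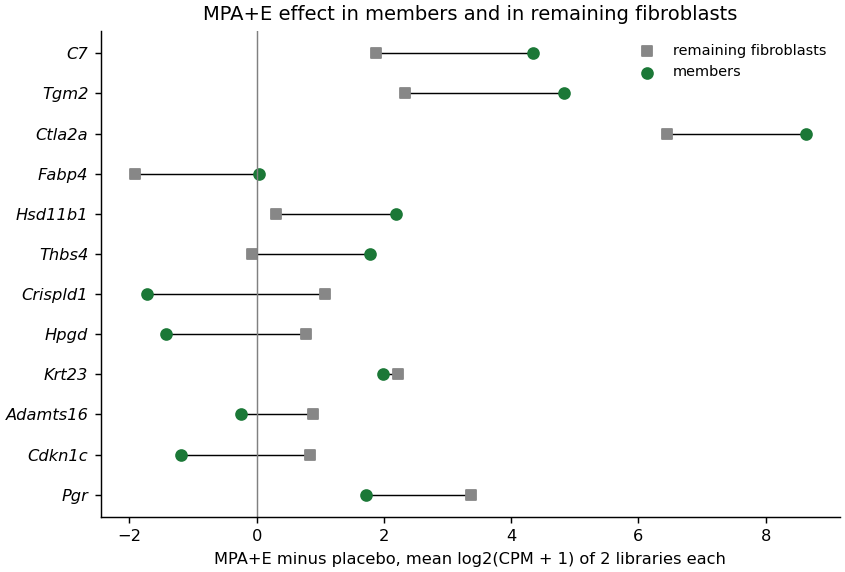
MPA+E minus placebo as the difference of mean log2(CPM + 1) over 2 libraries each, for the 12 genes with the largest called differences; green circles are the members and grey squares the remaining fibroblasts, joined by a line. C7 lies higher in the members (fitted difference 2.91) and Crispld1 lower (-2.78); Krt23 is near 0 CPM in the rest with placebo (0.116 and 0.346), so its plotted gap is smaller than the fitted one (-2.19).

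Hsd11b1, Hpgd, Pgr and Cdkn1c were among the genes that differed. Hsd11b1, which reactivates glucocorticoid, had 42.9 and 52.6 CPM with placebo and 248 and 197 with MPA+E in the members and 202 and 189.8 and 233 and 251 in the rest (1.94 ± 0.18, edgeR adjusted p = 0.004). Hpgd, which degrades prostaglandins, had 41.3 and 34.2 and 11.7 and 15.2 CPM in the members and 19.1 and 17.6 and 34.4 and 29.96 in the rest (-2.25 ± 0.17). The effect on Pgr was smaller in the members, where it was higher with placebo: in the rest it had 2.17 and 3.604 CPM with placebo and 31.5 and 46.6 with MPA+E (-1.97 ± 0.12, edgeR adjusted p = 0.0011). Cdkn1c, a cyclin-dependent kinase inhibitor, moved in opposite directions, with 112 and 129 and 53.8 and 50.9 CPM in the members and 189 and 192 and 365 and 317 in the rest (-2.004 ± 0.09, edgeR adjusted p = 6.96e-04). The differences of Igf1, Col14a1 and Esr1 were -1.07, -1.64 and -0.55, and that of Col4a1 was 1.20. The call of the Esr1 difference was lost at a Pi16 limit of 20 per 10000, with doublets removed and without either placebo library.

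By list, 11 of 28 progenitor markers had a more negative effect in the members, against 1.87% of all genes, and 0 a more positive one, against 1.36%, with a median of -0.42 (all genes 0.0014). They were Ly6c1, Anxa3, Ackr3, Efhd1, Tmem100, Igfbp6, Bmp7, Dact2, Ogn, Osr2 and Akr1c18, led by Akr1c18 (-1.54). The count was lower without either placebo library, as was the number of genes called over the whole test. The rule did not read these markers, but most progenitor markers were higher in the members than in the rest. A shift of cells across the limit of the rule could thus move them as well, and its part was not tested. Of the 14 interferon-induced genes, 1 (Ifi27l2a, -0.48) differed, and the other 13 did not pass the test of the difference. In the basement membrane list 5 of 14 had a more positive effect and 1 a more negative one, beside the same shares of 1.36% and 1.87%.

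From hyperplasia to tumour, the matrix genes Mgp, Timp1 and Col8a1 and the myofibroblast gene Lrrc15 rose in the members, and Cxcl13 and Krt19 fell. This comparison asks how progenitor-like fibroblasts of a Wnt1-driven tumour differ from those of the hyperplastic gland of the same mice, and was tested with limma-voom over the 6 libraries of puberty, adult, hyperplasia and tumour. Of 13828 genes, 509 changed (3.68%), 306 higher (2.21%) and 203 lower (1.47%) in the tumours. The calls were fragile to single libraries: 0 genes were called without hyperplasia 2 (2364 at an unadjusted p under 0.05), 13 without hyperplasia 1, 174 without puberty, 175 without adult, 1764 without tumour 1 and 1025 without tumour 2, which has 174 members. With the mouse as a block, which the shared animals call for, 1417 genes were called, 812 higher and 605 lower, and 506 of the 509 were among them. DESeq2 called 1612 and edgeR 693 genes.

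Mgp, a calcification inhibitor of the matrix, had 109 and 114 CPM in the hyperplasia and 1796 and 17307 in the tumour libraries (log2 fold change 5.89 ± 0.75 SE, limma adjusted p = 0.019). Timp1, a metalloproteinase inhibitor, had 10.2 and 15.6 and 348 and 648 CPM (5.21 ± 0.30, limma adjusted p = 0.0061). Col8a1, a short-chain collagen, had 18.1 and 5.62 and 274 and 1887 CPM (6.51 ± 0.85, limma adjusted p = 0.02). For each of these, both tumour libraries lay above both hyperplasia libraries, and for Mgp and Col8a1 tumour 2 was far above tumour 1. The genes with the largest rises were Fmod, a collagen-binding proteoglycan (0.391 and 0.171 and 53.9 and 224 CPM, 8.64 ± 1.60), Ltbp2 (7.47), C1qtnf3 (7.20), Tagln, a smooth muscle actin-binding protein (1.25 and 1.46 and 70.7 and 425 CPM, 7.02), and Igfbp2 (8.84 and 4.07 and 279 and 1202 CPM, 6.86). Without tumour 2 the fold changes were 4.04 for Mgp, 4.77 for Timp1, 4.94 for Col8a1, 7.70 for Fmod, 7.11 for Ltbp2, 5.30 for C1qtnf3, 5.69 for Tagln and 5.68 for Igfbp2, and all 8 remained called. With doublets removed Fmod (9.15), Ltbp2 (6.73), C1qtnf3 (7.17), Tagln (6.38) and Igfbp2 (10.8) lost the call with fold changes of similar or larger size. Without hyperplasia 1 all but Timp1 and without hyperplasia 2 all 8 lost it. Fmod, C1qtnf3 and Tagln also lost it without puberty and without adult, and Fmod and C1qtnf3 at a Pi16 limit of 20 per 10000.

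Of 13 myofibroblast genes, 4 rose (Tagln, Lrrc15, Cthrc1 and Col12a1), against 2.21% of all genes, and 0 fell, against 1.47%, with a list median of 5.15 (all genes -0.03). Lrrc15, a marker of tumour-associated myofibroblasts, had 2.27 and 2.79 CPM in hyperplasia and 75.6 and 223 in tumour (5.62 ± 0.70, limma adjusted p = 0.019). Cthrc1, a secreted collagen triple-helix protein, had 21.3 and 11.5 and 608 and 543 CPM (5.15 ± 0.68). Without tumour 2 these were 4.89 and 5.37, and both calls were lost without either hyperplasia library, that of Lrrc15 also at a Pi16 limit of 20 per 10000. The count of 4 moved when a library was left out, as did the number of genes called over the whole test. In the remaining fibroblasts the same genes were higher in the tumours as well: Lrrc15 had 15.8 and 11.9 and 344 and 387 CPM and Tagln 3.73 and 4.38 and 571 and 1138 CPM. Of 17 genes of elastic fibres and loose matrix 4 rose (Fbn2, Mfap4, Emilin1 and Fbln1), and of 7 IGF-binding genes 3 rose (Igfbp2, Igfbp3 and Igfbp7), beside the same share of 2.21%. Of 20 chemokine and complement genes, Cxcl14, Ccl2, Ccl7 and Ccl8 rose and Cxcl13 fell (194 and 177 and 11.7 and 4.16 CPM, -4.25 ± 0.52). The counts of these 3 lists moved without tumour 2, as did the number of genes called over the whole test.

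The progenitor markers gave 0 rises and 1 fall, Bmp7 (47.4 and 64.5 and 14.8 and 5.67 CPM, -2.16 ± 0.39, limma adjusted p = 0.039), with a list median of -1.56. Their count of falls was 8 with the mouse as a block, where 605 of all 13828 genes fell, and it moved when a library was left out. Per library, the summed progenitor markers had 32984 and 34139.6 CPM in hyperplasia and 23872 and 10418 in tumour. Besides Krt19 (69.7 and 167 and 4.72 and 4.16 CPM, -4.50) and Cxcl13, the largest falls were those of the integrin subunit Itgb7 (-4.50), the methyltransferase Inmt (-4.16), Stmn4 (-3.99) and Ppp2r2b (-3.39). Marker lists of other cell types also differed in level: in hyperplasia and tumour the members' epithelial list summed to 69.8 and 167 and 5.67 and 6.05 CPM, the pericyte list to 28.2 and 21.6 and 79.8 and 42.7. Most of the epithelial sum was the single gene Krt19, with the values above. The Schwann list summed to 37.4 and 46.6 and 21.1 and 24.9, the immune list to 9.93 and 12.5 and 16.6 and 14.4, and the mesothelial list to 0.156 and 0.30004 and 3.49 and 12.8. In the rest the epithelial list summed to 5.79 and 8.72 and 3.66 and 1.69 CPM, below the members of each library. The part of these lists in the results was not tested. The 6 largest falls and that of Bmp7 remained called without tumour 2, and all 7 lost the call without hyperplasia 2. Bmp7 also lost it with Dpp4 required, after thinning of the cells to 2000 UMIs and without puberty, adult or hyperplasia 1, Itgb7 and Inmt without tumour 1 or hyperplasia 1, Cxcl13 without hyperplasia 1, and Ppp2r2b without puberty, adult or hyperplasia 1.

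The step to tumour differed between members and remaining fibroblasts for 739 of 15297 genes (4.83%), 477 more positive (3.12%) and 262 more negative (1.71%) in the members, by limma-voom over 8 sums with the library as a factor. The count was 12 without hyperplasia 2, 52 without hyperplasia 1, 4101 without tumour 1 and 3436 without tumour 2, and 368 by edgeR. Steap4, a metalloreductase, had 14.9 and 15.8 CPM in hyperplasia and 70.9 and 33.6 in tumour in the members and 154 and 167 and 86.7 and 44.9 in the rest (3.16 ± 0.17, limma adjusted p = 0.0081). Apod, a lipocalin, had 279 and 220.2 and 661 and 715 CPM in the members and 1694 and 1721 and 951 and 386 in the rest (3.09 ± 0.40, limma adjusted p = 0.019), and Bgn, the proteoglycan biglycan, 156 and 135 and 2318 and 6201 against 1229 and 1191 and 4783 and 4434 CPM (2.87 ± 0.40). Without tumour 2 the differences were 3.12 for Steap4, 2.28 for Apod and 2.04 for Bgn; the call of Bgn was lost without either hyperplasia library and that of Apod without hyperplasia 2. In the members Apod and Bgn rose by the test within members and Steap4 did not pass it (limma adjusted p = 0.052), and for all 3 the rest started from a higher level in the hyperplasia.

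Il33 and Dmkn, which lead in the members, gave a more negative difference. Il33 had 262 and 387 CPM in hyperplasia and 458 and 726 in tumour in the members, and 12.5 and 14.5 and 270.3 and 289.8 in the rest (-3.44 ± 0.21, limma adjusted p = 0.0081). Dmkn had 232 and 586 and 253 and 79.4 CPM in the members and 1.88 and 14.5 and 43.2 and 21.3 in the rest (-3.52 ± 0.47, limma adjusted p = 0.021). Without tumour 2 the differences were -3.78 for Il33 and -3.22 for Dmkn, and the call of Dmkn was lost at a Pi16 limit of 20 per 10000 (-2.23). Of the 28 progenitor markers 6 had a more negative effect (Anxa3, Cd248, Bmp7, Il33, Aldh1a3 and Akr1c18), against 1.71% of all genes, and 0 a more positive one, against 3.12%. Both counts moved when a library was left out, as did the number of genes called over the whole test. Of 14 basement membrane genes 7 had a more positive effect in the members, against 3.12% of all genes. Of 7 adipogenesis-regulatory genes 5 did (Fmo2, F3, Meox2, Igfbp7 and Vtn), and these list counts moved with single libraries as well. These contrasts narrow the gap between members and rest, and in tumour 2 the members themselves were less clearly separated (46.6% held only 1 co-marker), a part that was not tested.

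Hyperplasia was compared with the normal gland, represented by the puberty and adult libraries as in the study's methods, in the same limma-voom fit. In the members 657 of 13828 genes changed (4.75%), 406 higher (2.94%) and 251 lower (1.82%). Strain, genotype, sort and age differ here, and the count depended on the choice of normal libraries: it was 19 against the placebo libraries (1360 at an unadjusted p under 0.05) and 125 against puberty, adult and placebo together, alternatives chosen after seeing the data. Of the 657 genes, 471 had both hyperplasia libraries beyond both placebo libraries in the same direction and 186 did not. That split is a description, since the same hyperplasia libraries entered the count of called genes. It was 0 without hyperplasia 1 (2267 at an unadjusted p under 0.05), 11 without hyperplasia 2, 4 without puberty, 6 without adult, and 2057 or 2106 without tumour 1 or 2.

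Genes that held against the placebo libraries were few. Ifi202b, an interferon-inducible nucleic acid sensor with near-identical copies, had 0.197 and 0.132 CPM in puberty and adult, 0.527 and 0.59 with placebo and 141 and 124 in hyperplasia (9.51 ± 0.59, limma adjusted p = 0.0035, and 7.79 against placebo). C1rb, a complement protease gene with a near-identical copy, had 0.147 and 0.099, 0.414 and 0.59 and 45.9 and 42.5 CPM in the same order (8.29 ± 0.79, and 6.37 against placebo). Gabra3, a GABA receptor subunit, had 36.7 and 41.7, 61.1 and 59.97 and 2.27 and 1.72 CPM (-4.39 ± 0.25, and -5.03 against placebo). With a library left out, the call of C1rb was lost in each of the 4 cases, that of Ifi202b without puberty, adult or hyperplasia 1, and that of Gabra3 without either hyperplasia library. Cebpb, a transcription factor of adipogenesis and acute responses, did not hold: it had 54.2 and 58.7 CPM in puberty and adult, 450.5 and 907 with placebo and 633 and 574 in hyperplasia (3.37 ± 0.16, limma adjusted p = 0.0026, and -0.13 against placebo). The transcript AY036118 (3.49, and 0.02 against placebo) behaved likewise.

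Of the 14 interferon-induced genes, 9 were lower in hyperplasia than in puberty and adult, against 1.82% of all genes, with a median of -1.72. Ifit3 had 124 and 211 CPM in puberty and adult and 13.4 and 15.4 in hyperplasia (-3.52 ± 0.38, limma adjusted p = 0.012), and with placebo, as above, 74.3 and 38.5. Rsad2 (-2.93), Isg15 (-2.44) and Irf7 (-2.28) were lower as well. Against the placebo libraries 0 of the 14 passed the test, and 0 did without any 1 of the 4 normal and hyperplasia libraries. Among signals, Bmp4 (5.75 and 4.198 CPM against 42.3 and 35.6, 2.97), Rspo3 (2.83), Ccn3 (3.44) and Ccl11 (2.64) were higher in hyperplasia, and Tgm2 (-3.57), Plagl1, an imprinted regulator (-2.93), and Pnp2 (-2.74) were lower. Against the placebo libraries none of these 7 passed the test, with log2 fold changes of 0.28 for Bmp4, 1.17 for Rspo3, 1.14 for Ccn3, 0.64 for Ccl11, -0.013 for Tgm2, -2.39 for Plagl1 and -1.36 for Pnp2. Of 12 fibrillar collagen genes and processing factors, 3 were lower (Col6a3, Pcolce and Serpinh1) and 0 higher; 0 passed the test against the placebo libraries or without any 1 of the 4 normal and hyperplasia libraries. Of 28 progenitor markers 0 passed the test in either direction. Other lists differed in level between the members of puberty and adult and those of hyperplasia. The epithelial list summed to 38.4 and 61 and 69.8 and 167 CPM, and the endothelial list to 29.5 and 45.4 and 9.62 and 25.03. In hyperplasia nearly all of the epithelial sum was the single gene Krt19. The immediate early and heat shock list summed to 15088 and 18883 and 30857 and 22784 CPM. The part of these lists was not tested.

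Across the 5 stages, with 1 library each and hence no test, the members of lactation stood out. Of 3417 genes with at least 50 CPM in a stage, 590 differed by at least 2-fold between the highest and the lowest stage (17.3%) and 103 by at least 4-fold. Of the 590, 283 were highest in lactation, 122 in involution, 81 in the adult, 73 in puberty and 31 in pregnancy. The 2 placebo libraries, a single pair rather than the extremes of 5 libraries and so no direct measure of the error of that count, were 2-fold apart for 27 of the same genes (0.79%), and the adult library differed 2-fold from both placebo libraries in 1 direction for 72 (2.11%), 69 of them among the 590. The adult library thus differed from virgin females of the same age in a part of the genes that varied between stages.

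Idi1 and Sqle, a pair of sterol synthesis enzymes, had some of the largest ratios. Idi1, which acts early, at the isoprenoid step, had 12.9, 11.1, 5.77, 188 and 6.02 CPM in puberty, adult, pregnancy, lactation and involution, a ratio of 32.5 (26.9 to 39.6) between the highest and lowest stage with its counting interval. Sqle, squalene epoxidase, had 12.4, 11.6, 6.67, 85.1 and 3.25 CPM in that order (ratio 26.2 (20.2 to 34.4)). Both were highest in lactation, and the remaining fibroblasts of the lactation library had 167 and 86.1 CPM, so the members were not alone in this. The milk gene list, which marks RNA from secretory epithelium, summed to 1193 CPM in the members of lactation (513 in the rest) and 36.7 in those of pregnancy.

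Acta2, smooth muscle actin, was 19.3, 8.099, 122, 2.38 and 1.36 CPM over the stages, highest in pregnancy, but it also differed between the placebo libraries (15.2 and 40.1). Hspa1b, a heat shock gene that responds to cell handling, was 46.4, 127, 27.7, 789.7 and 687 CPM, highest in lactation and involution. Ptpn5, a tyrosine phosphatase, was 21.98, 57.8, 15.01, 0.5202 and 5.21 CPM, and Cldn11, a claudin, 12.4, 64.4, 18.3, 2.08 and 24.95 CPM; both were highest in the adult and lowest in lactation, with 7.498 and 7.22 and 15.6 and 17.4 CPM with placebo. Hmcn1, a hemicentin of the matrix, was also among the 8 largest ratios with 1.18, 9.65, 11.4, 55.3 and 18.99 CPM. In the remaining fibroblasts Acta2 had 64.7, 24.5, 285, 1.83 and 2.81 CPM, also highest in pregnancy. There too Hspa1b was highest in lactation and involution, Ptpn5 and Cldn11 in the adult and Hmcn1 in lactation. The members were thus not alone in these changes.

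Of 14 basement membrane genes, 12 varied by at least 2-fold, against 16.9% of genes at 20 CPM or more, and 12 were highest in lactation, against 38.8% of those genes. Col4a1 had 240.4, 301, 401, 816 and 447 CPM over the stages and Col15a1 47.6, 62.2, 73.6, 209 and 94.1 CPM (ratio 4.38 (4.09 to 4.6998)). The remaining fibroblasts were highest in lactation as well, with a basement membrane sum of 11726 CPM in lactation and 4823 to 6770 in the other stages. Fibrillar collagens behaved otherwise: 3 of 12 varied by at least 2-fold and 9 were highest in puberty, against 11.8% of all genes, with Col1a1 at 15244, 3535, 8796, 6253 and 7072 CPM. The fibrillar collagen sum was highest in puberty in the members (49259 CPM) and in the rest (47689 CPM). Of 17 genes of elastic fibres and loose matrix 8 varied by at least 2-fold and 9 were highest in lactation, where 38.8% of all genes at 20 CPM or more were highest.

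Of 13 interferon-induced genes, 12 varied by at least 2-fold and 0 were highest in lactation; Ifit3 had 124, 211, 153, 15.6 and 48.3 CPM. Of 19 chemokine, cytokine and complement genes, 15 varied by at least 2-fold, against 16.9% of all genes at 20 CPM or more. Of the 19, 9 were highest in involution, against 14.1% of all genes, and 6 in lactation, a share below the 38.8% of all genes. Ccl11 had 46.9, 75.4, 40.4, 440.5 and 257 CPM and Il6, a pleiotropic cytokine, 54.6, 51.6, 23.6, 78.8 and 178 CPM. Pgr had 59.4, 68.3, 64.1, 8.67 and 36.1 CPM and Greb1 20.3, 35.9, 34.2, 3.73 and 9.82 CPM, both lowest in lactation. Of the progenitor markers 9 of 28 varied by at least 2-fold, against 16.9% of genes at 20 CPM or more, with a median ratio of 1.69 (1.52 over those genes), and Igfbp5 had 2725, 3607, 5029, 5532 and 6732 CPM. The rule genes, which chose the cells, had ratios with a median of 1.78.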

How the data were processed

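Single-cell libraries had been prepared with the 10x Genomics Chromium 3′ kit. The authors aligned the reads to mm10 and counted UMIs with Cell Ranger 6.1.2 (per the submitters' processing notes), and the deposited matrices hold UMI counts per gene and barcode, with 32285 genes listed and no normalization. Doublets were not removed in the main analysis. Cells were gated by the rule given in the results, UMI counts were summed per library over members and over remaining fibroblasts, and genes read by the rule were left out of all counts of calls. The members, the gene lists and the rule were chosen with earlier results of these data known.

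Sums were tested with edgeR 4.0.16 (quasi-likelihood, TMM, filterByExpr) for MPA+E and its interaction with membership, and with limma-voom 3.58.1 for hyperplasia and tumour, in R 4.3.3. Adjusted p-values are those of Benjamini and Hochberg over all genes tested, and genes under 0.05 were called. The shares of all genes called are those of the main fit. They differ in the other fits, so list counts of those fits are not to be read against them. The SE of an edgeR fold change was taken as its size over the square root of F. Cells and plots were handled in Python 3.11.15 with scanpy 1.11.5 and scipy 1.17.1. Scripts were tested on simulated data. The alternatives were other Pi16 limits (5 and 20 per 10000), Dpp4 alone as co-marker, a mitochondrial limit of 5%, doublets removed (Scrublet, at 0.8% per 1000 barcodes), cells thinned to 2000 UMIs, other normalization, filter and tools (DESeq2 1.42.0), each library left out, and the replicate block.

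Named genes were the members of the lists and, per test, the 10 largest rises and falls (6 for interactions and raGFP-Wnt1 comparisons) among called genes with a mean of at least 20 CPM and no overlap between groups, leaving out genes named Gm or Rik. For members against the rest they were the 15 highest and 10 lowest genes at 50 CPM or more with the same sign in 13 libraries, and for stages the 8 largest ratios at 50 CPM or more, leaving out Gm, Rik, mitochondrial, ribosomal, milk and haemoglobin genes.

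Intervals are 95% and cover counting error only. Where libraries pool animals, p-values measure the spread between libraries. Replicates differed beyond sampling noise (chi-square per degree of freedom 28.3 to 66.4). Hyperplasia and tumour were taken from the same mice per the study, and those of 1 number share an age in the labels. The blocked count is thus given beside the tumour result. Their deviations correlated at 0.195 over 13170 genes, below the 0.337 of placebo and MPA+E, so this correlation does not show the pairing. Reads of genes with near-identical copies (Ctla2a, Ifit3, Ifi202b, C1rb, Ly6a, Apol9a and Apol9b) can be split between copies, and their values are uncertain. Promoter sequences are from RefSeq. Results of a few genes that these rules would name are not reported here.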

Additional observations from a re-analysis of the deposited data

Results flagged for a closer look

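The effect of MPA+E differed between members and remaining fibroblasts of the same libraries for 478 genes by the interaction test. Among those named, the difference of log2 effects was positive for C7 (2.91), Tgm2 (2.58), Ctla2a (2.38), Fabp4 (1.99), Hsd11b1 (1.94), Thbs4 (1.92) and Col4a1 (1.20). It was negative for Crispld1 (-2.78), Hpgd (-2.25), Krt23 (-2.19), Adamts16 (-2.08), Cdkn1c (-2.004), Pgr (-1.97), Col14a1 (-1.64), Akr1c18 (-1.54), Igf1 (-1.07), Esr1 (-0.55) and Ifi27l2a (-0.48). Under alternatives of the rule, doublet removal, thinning or limma-voom the calls of Ctla2a, Fabp4, Thbs4, Krt23, Adamts16, Esr1 and Ifi27l2a were lost in 1 or more. Thbs4, a thrombospondin, had 44.7 and 73.1 CPM with placebo and 493 and 80.97 with MPA+E in the members and 166 and 256 and 373 and 104 in the rest. Crispld1 had 148 and 137 and 33.6 and 53.96 CPM in the members and 107 and 76.6 and 191 and 191 in the rest.

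The step from hyperplasia to tumour differed between members and remaining fibroblasts for 739 genes. The difference was positive for Steap4 (3.16), Apod (3.09), Tspan11 (3.09), Igfbp7 (2.99), Cyp1b1 (2.89) and Bgn (2.87) and negative for Ecscr (-5.42), Tmeff1 (-4.79), Arl4c (-3.77), Adamts16 (-3.56), Serpinb2 (-3.52), Dmkn (-3.52), Il33 (-3.44) and Aldh1a3 (-2.22). Without tumour 2 the positive differences were, in this order, 3.12, 2.28, 2.73, 2.12, 2.70 and 2.04. The negative ones were -5.94, -4.69, -3.67, -3.48, -3.58, -3.22, -3.78 and -1.88. The calls of Serpinb2, Dmkn and Aldh1a3 were lost at a Pi16 limit of 20 per 10000, and without either hyperplasia library or 1 of them those of Apod, Tspan11, Igfbp7, Bgn, Adamts16, Serpinb2 and Aldh1a3. Ecscr had 78.3 and 126 CPM in hyperplasia and 11.4 and 52.9 in tumour in the members and 3.34 and 5.46 and 30.9 and 56.1 in the rest. No group had 4 libraries, so no library was tested as an outlier within its group.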

How the results depend on the processing

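The lower share of members in raGFP-Wnt1 mice, under MPA+E and in hyperplasia kept its direction under every alternative tried. The tumour minus hyperplasia share ran from -17.8 to 5.55 points with a library left out and turned without tumour 2. The pregnancy to involution ratio of 1.62 was 1.47 and 1.92 at Pi16 limits of 5 and 20 per 10000, 1.29 with Dpp4 required and 1.68 at 5% mitochondrial UMIs. Genes called for MPA+E (854) were 2127 with the replicate block, whose numbers are only shared (correlation of deviations 0.337), and 103 to 1304 with a library left out; for the interaction (478) 260 at the Pi16 limit of 20, 1103 without a filter and 353 to 719 with a library left out. Genes called for tumour against hyperplasia (509) were 1252 and 335 at Pi16 limits of 5 and 20, 795 with Dpp4 required, 287 without doublets, 1010 after thinning, 1612 by DESeq2, 1417 with the replicate block and 0 to 1764 with a library left out. For hyperplasia against normal (657) they were 1215 with Dpp4 required, 402 without doublets, 1291 after thinning, 340 by edgeR, 19 with placebo and 125 with puberty, adult and placebo as normal, and 0 to 2106 with a library left out. For the tumour interaction (739) they were 388 at the Pi16 limit of 20, 1251 with Dpp4 required, 487 without doublets, 1493 after thinning, 368 by edgeR and 12 to 4101 with a library left out. A library left out leaves 1 sample in its group, which is assumed to vary like the others. For single named genes, 1682 values kept side and direction, 262 lost the call and 3 gained it; with placebo as normal, Cebpb became -0.13 and Wnt11 -0.018. Apart from the alternative's own construction (fewer libraries or cells), the cause was not tested.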
